A study of Homo sapiens with 6 samples.

Results

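The 44 mitosis genes described here were listed by name, by a rule that uses no measured value, but with earlier results of these data known. They run from the cyclins and kinases that start cell division to the motors and ring proteins that end it. They are 44 of the 19775 genes measured, and 87 probe sets name 1 of them alone. RNA came from NTERA2/D1 cells, an established human testicular teratocarcinoma line with the features of pluripotent embryonal carcinoma cells. Knockdown cells received siRNA against VAMP7 and control cells a nonspecific scrambled siRNA, each for 72 h from 24 h after plating, with 3 arrays per group. No other genotype or treatment was described, all cells came from this 1 line, and the siRNA acts on the whole culture. The titles number biological replicates 1 to 3 and do not say what was separate between them. The p-values here speak only for the scatter among these 6 arrays, part of which can be technical.

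Mitosis is the phase in which the copied chromosomes are condensed, attached to a spindle of microtubules and pulled apart. Cyclin-dependent kinase 1 with its B cyclins starts it, the kinetochore on each centromere binds the spindle, and the spindle checkpoint holds back the anaphase-promoting complex, a ubiquitin ligase, until all chromosomes are attached. The complex then marks cyclin B and securin for destruction, separase opens the cohesin rings, and motor proteins and a contractile ring finish division. Messenger RNAs of many of these proteins peak in G2 and M phase. In a bulk culture the level of those also follows the share of dividing cells. In bulk RNA, fewer cells in that phase and less RNA per cell cannot be told apart.

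VAMP7, the SNARE protein that the siRNA targets, read 136.8, 175.4 and 148.6 intensity units in the knockdown arrays, against 2487, 2617 and 2741 in the control arrays. On the log2(intensity + 50) scale used throughout, knockdown minus control was -3.71 (SE 0.11), with an adjusted p of 8.96e-05 in limma. All 7 measured markers of pluripotent cells, among them SOX2 and LIN28A, read at or above the median gene, while 0 of 3 leukocyte markers, 1 of 6 fibroblast markers (COL1A1) and 2 of 4 endothelial markers (VWF and TEK) did. The summed endothelial markers ran from 2901 to 3541 in knockdown and from 2517 to 2865 in control. VWF, with means of 1596 in knockdown and 1176 in control, was at 0.42 and the dim PECAM1 at 0.34. TEK was at -0.06 and CDH5 at -0.05, so the list did not move as 1. Of the pluripotent markers NANOG was at -0.28 and SOX2 at 0.22, and the others lay between -0.03 (L1TD1) and 0.09 (SALL4). The part of these markers in the values below was not tested. Over all genes, knockdown replicate 1 was the array least like the others, with a mean correlation of 0.9878 with them, against 0.99 to 0.991 for the rest. Values of members and of their probe sets of 100 units or more that moved by over 1.5 times or changed sign without that array are given below without it as well.

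No mitosis gene passed the test. Limma called 0 of the 44 at an adjusted p under 0.05, where it called 0.00506% of all genes (VAMP7 alone), and the smallest adjusted p among the 44 was 0.736. At an unadjusted p under 0.05 there was 1 member higher in knockdown, MKI67, and 1 lower, BUB3, against 3.63% of all genes higher and 3.03% lower. The 3 knockdown arrays lay above all 3 control arrays for 4 members (MKI67, ESPL1, NCAPD2 and SMC2), where 6.68% of all genes did, and below them for 2 (BUB3 and CCNB1), where 6.29% did. These shares of the members, 4.55% at an unadjusted p under 0.05 and 13.6% without overlap, lay near the 6.66% and 13.0% of all genes. The median log2 fold change of the 44 was 0.01, with 23 members above 0, and that of all genes was 0.003. The count above 0 moved with the scaling, to 18 when arrays were centred on their medians and to 28 after quantile normalization.

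The sizes that these arrays could miss are bounded, for each gene singly, by its interval. On the probe set that stands for it, every member's log2 fold change lay between -0.32 (MAD2L1) and 0.23 (MKI67). There the 95% interval stayed within 1 log2 unit of 0, a 2-fold change, for all 44. The bound farthest from 0 was -0.73, for SPC25. Further probe sets of the members were bounded less closely. One of PLK4, at -0.60, had an interval of -1.36 to 0.15, and one of BIRC5, at -0.46, had -1.16 to 0.23. The median standard error of the members was 0.11 log2 units. Member signals ran from 202.5 (INCENP) to 12090 (UBE2C) intensity units, and 43 of the 44 lay at or above the median gene. Signals of different probe sets do not rank the transcripts.

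**Figure D1:**
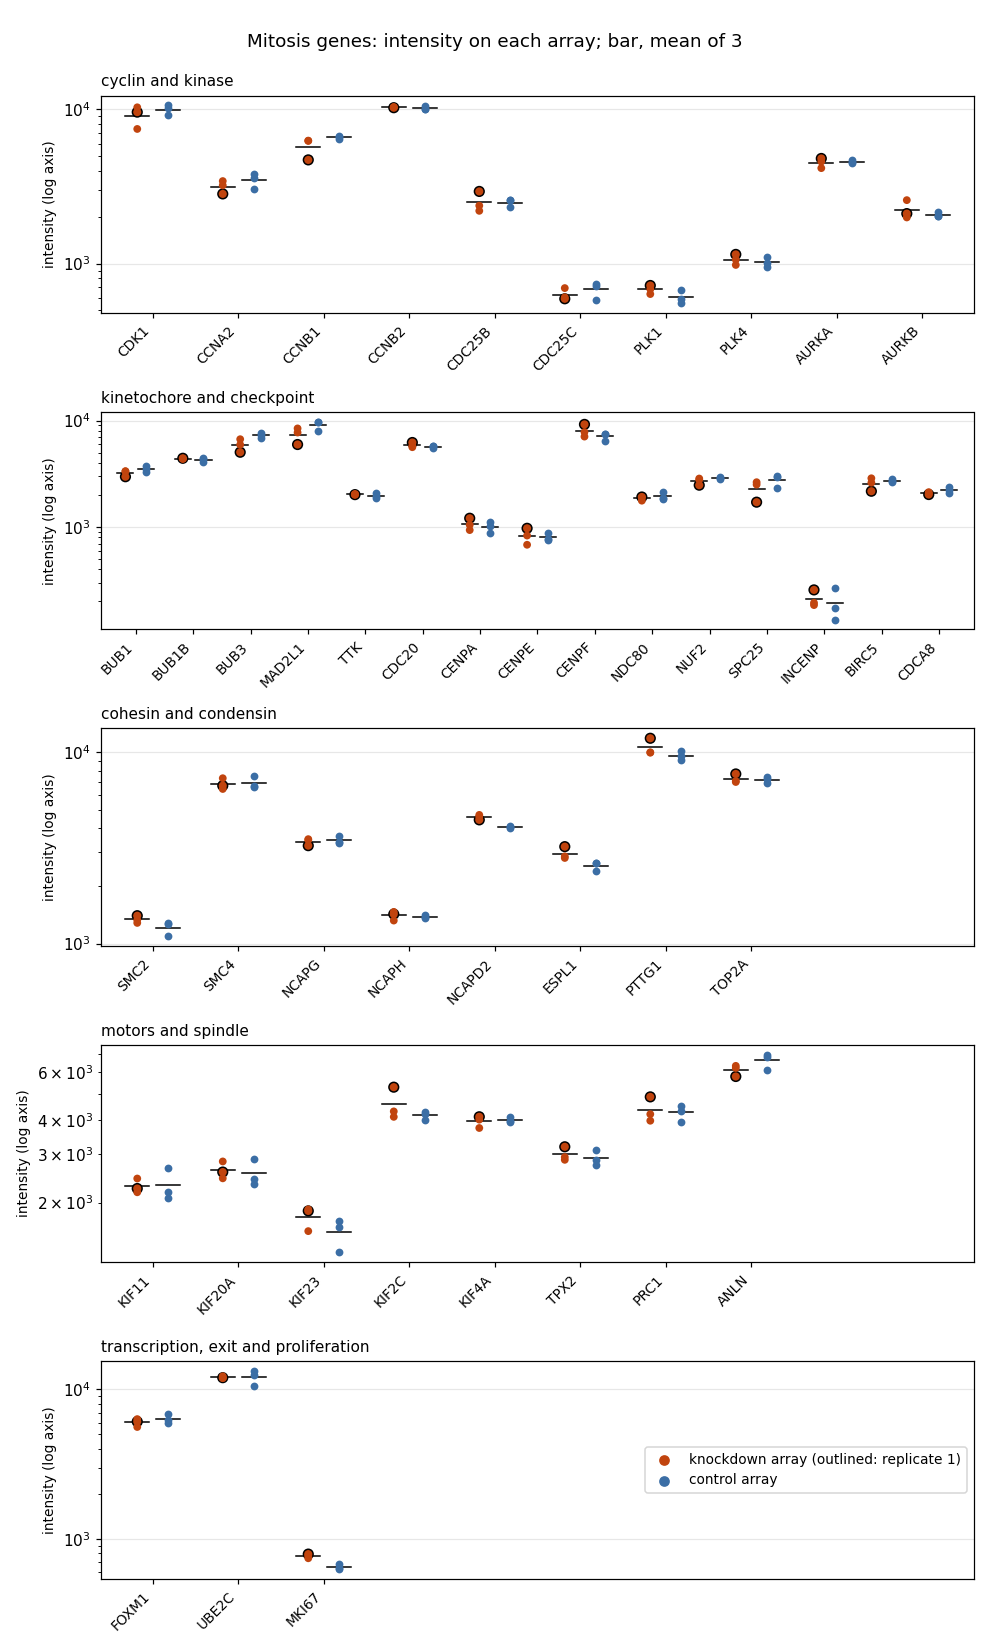
Intensity of each of the 44 genes on each array (log axis), in panels by role, with knockdown arrays in red to the left of control arrays in blue, and a bar at the mean of 3 arrays. The groups overlap for 38 of the 44 genes, and the outlined knockdown replicate 1 is often the highest or the lowest point.

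**Figure D2:**
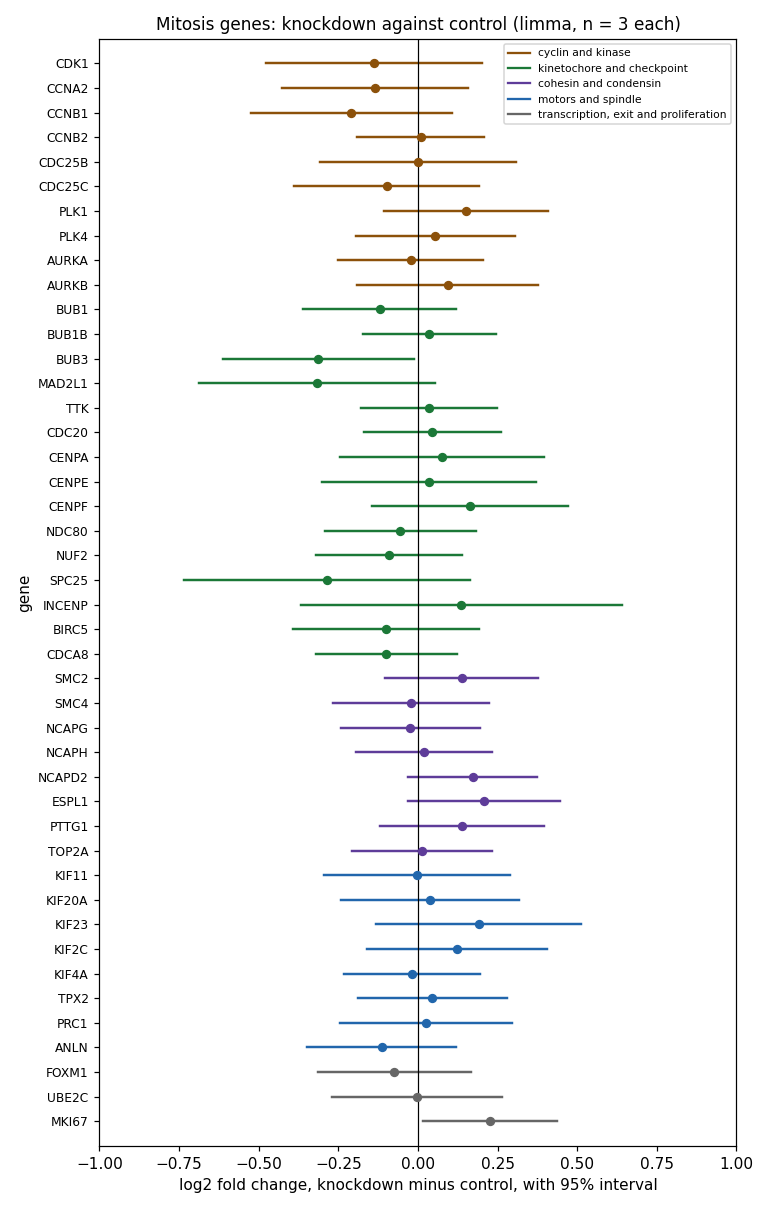
Log2 fold change of each gene, knockdown minus control, with its 95% interval from limma (n = 3 arrays each), coloured by role. The intervals of MKI67 (0.02 to 0.44) and BUB3 (-0.61 to -0.01) leave out 0 before adjustment, and none reaches 1 log2 unit.

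Of the sequence of these genes, only the promoters were looked at here. Many G2 and M phase genes are held down in resting cells by the DREAM complex and switched on by B-MYB and FOXM1 through a cell cycle genes homology region, whose core is TTTGAA or the related TTTAAA, and many carry CCAAT boxes, which bind NF-Y. RefSeq promoter windows of 300 bases (GRCh38.p14, 250 bases before to 50 after the start) were at hand for 37 of the 44 genes. Several of these had more than 1 start. No window was at hand for AURKA, BIRC5, BUB3, FOXM1, TPX2, TTK and UBE2C, so these 7 are neither counted nor printed below. TTTGAA on either strand occurred in 58% of the 50 member windows, against 15.2% of all 35116 windows. TTTAAA, which reads the same on both strands, occurred in 28%, against 12.2%. A CCAAT box on either strand occurred in 66%, against 34.6%, and at least 2 of them in 34%, against 10.8%. A core of either kind occurred in 74% of the member windows, against 24.0% of all windows. Counted by gene, where several starts give more chances, 34 of the 37 had such a core in at least 1 window, against 27.9% of all genes. The exceptions were AURKB, CCNA2 and BUB1, whose windows did hold a CCAAT box. A match of letters is not a binding site, and nothing was measured here on promoter binding.

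The 250 bases before the start are printed below for the 5 members of smallest unadjusted p that had a single window, so that the elements can be seen in the genes whose values are given next. Each is written 5′ to 3′ on the gene's own strand, with CCAAT boxes (ATTGG when they lie on the other strand) and both homology region cores in capitals. They lie at chr10:128126424-128126673 (MKI67, minus strand), chr12:53268049-53268298 (ESPL1, plus strand), chr4:120066849-120067098 (MAD2L1, minus strand), chr12:6493852-6494101 (NCAPD2, plus strand) and chr5:69166900-69167149 (CCNB1, plus strand).
MKI67: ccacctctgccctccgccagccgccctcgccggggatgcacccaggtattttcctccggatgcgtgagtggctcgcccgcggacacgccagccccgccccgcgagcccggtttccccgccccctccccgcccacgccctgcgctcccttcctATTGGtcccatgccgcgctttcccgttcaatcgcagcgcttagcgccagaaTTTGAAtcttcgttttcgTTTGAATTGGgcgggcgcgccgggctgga
ESPL1: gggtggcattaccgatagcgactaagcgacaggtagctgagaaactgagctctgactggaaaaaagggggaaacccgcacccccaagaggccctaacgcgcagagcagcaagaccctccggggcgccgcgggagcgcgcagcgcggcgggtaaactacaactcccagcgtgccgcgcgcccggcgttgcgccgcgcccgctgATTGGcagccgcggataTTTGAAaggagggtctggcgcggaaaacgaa
MAD2L1: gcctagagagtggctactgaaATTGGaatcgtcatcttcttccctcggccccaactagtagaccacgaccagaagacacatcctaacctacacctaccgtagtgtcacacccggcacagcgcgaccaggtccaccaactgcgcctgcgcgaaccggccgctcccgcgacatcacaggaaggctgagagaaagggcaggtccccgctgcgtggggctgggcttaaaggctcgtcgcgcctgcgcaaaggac
NCAPD2: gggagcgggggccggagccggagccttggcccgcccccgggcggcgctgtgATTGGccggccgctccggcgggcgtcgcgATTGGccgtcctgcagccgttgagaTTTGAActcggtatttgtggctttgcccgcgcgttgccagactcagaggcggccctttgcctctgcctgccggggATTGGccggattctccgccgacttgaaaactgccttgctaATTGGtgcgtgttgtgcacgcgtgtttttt
CCNB1: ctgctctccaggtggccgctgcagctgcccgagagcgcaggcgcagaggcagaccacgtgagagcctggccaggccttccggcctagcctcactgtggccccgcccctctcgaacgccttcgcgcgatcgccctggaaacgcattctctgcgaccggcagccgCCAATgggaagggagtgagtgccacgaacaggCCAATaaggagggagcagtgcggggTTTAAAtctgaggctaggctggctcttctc
MKI67 held 2 TTTGAA elements here, the second of which shares its last base with a reversed CCAAT box. NCAPD2 held 4 CCAAT boxes and 1 TTTGAA, ESPL1 held 1 of each, and CCNB1 held 2 CCAAT boxes and 1 TTTAAA. In MAD2L1 the printed stretch held 1 CCAAT box, and its 1 TTTGAA match on either strand reached past the stretch shown. In the comparison MKI67, ESPL1 and NCAPD2 stood above 0, and MAD2L1 and CCNB1 below. These genes were picked by their p in that same comparison, and none passed. A link between promoter elements and the direction of change was not tested.

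None of the 10 cyclin and kinase genes passed the test, and 4 lay above 0. CCNB1, cyclin B1, which activates CDK1 for entry into mitosis, read 4705, 6276 and 6247 in the knockdown arrays, against 6408, 6667 and 6693 in the control arrays. The groups did not overlap, the nearest arrays were 132 units apart, and replicate 1 of the knockdown was the low one. The log2 fold change was -0.21 (SE 0.13, adjusted p = 0.818 in limma), or -0.07 without knockdown replicate 1. A second CCNB1 probe set read 2170, 3359 and 3063 in knockdown, against 4048, 3856 and 3336 in control, a log2 fold change of -0.40 (SE 0.18), or -0.22 without knockdown replicate 1, and there the groups overlapped by 1 array.

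CCNB2, cyclin B2, differed little between arrays, with 10260, 10344 and 10347 in knockdown, against 10113, 10138 and 10504 in control. Its log2 fold change was 0.01, with a 95% interval of -0.19 to 0.21. CDK1, the kinase that both cyclins bind, was at -0.14 (interval -0.48 to 0.20), and CCNA2, cyclin A2, which acts from S phase to early mitosis, was at -0.13, or -0.06 without knockdown replicate 1. The 3 CDK1 probe sets of highest signal gave -0.14, -0.10 and -0.06, and the 2 of CCNA2 gave -0.13 and -0.11.

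PLK1, a kinase of centrosome maturation, checkpoint recovery and cytokinesis, read 720.5, 681.9 and 633.9 in knockdown, against 674.9, 553.5 and 592.8 in control, and the groups overlapped. At 0.15 (SE 0.11, adjusted p = 0.836 in limma) it had the highest log2 fold change of the cyclin and kinase genes. CDC25B and CDC25C, the phosphatases that remove the inhibitory phosphates from CDK1, were at 0.00 and -0.10, or -0.12 and -0.06 without knockdown replicate 1. The Aurora kinases AURKA, of the spindle poles, and AURKB, of the chromosomal passenger complex, were at -0.02 and 0.09, and AURKA was at -0.07 without that array. A second AURKA probe set gave 0.02, or 0.004 without it.

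PLK4, the kinase that starts centriole duplication, depended on the probe set. The probe set that stands for it read 1146, 1061 and 979.5 in knockdown, against 1105, 952.0 and 1005 in control, a log2 fold change of 0.05. A second one read 363.1, 862.2 and 592.3 in knockdown, against 841.3, 1243 and 687.6 in control, a log2 fold change of -0.60 (SE 0.32, adjusted p = 0.805 in limma). The second probe set varied more than 2-fold within the knockdown group, and its groups overlapped. Without knockdown replicate 1, its lowest array, that probe set gave -0.31 and the first gave 0.001.

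Among the 15 kinetochore and checkpoint genes 7 lay above 0, and the lowest log2 fold changes of the 44 stood here. BUB3, a checkpoint protein that brings BUB1 and BUBR1 to the kinetochore, read 5045, 6686 and 5938 in knockdown, against 6844, 7362 and 7671 in control. The groups did not overlap, and the highest knockdown array was 158 units below the lowest control array. The log2 fold change was -0.31 (SE 0.13, unadjusted p = 0.0426 and adjusted p = 0.738 in limma). It was -0.21 without knockdown replicate 1 (unadjusted p = 0.103), and of the 6 arrays only knockdown replicate 2 could be left out with the unadjusted p staying under 0.05.

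The other 5 BUB3 probe sets did not repeat that size. A probe set of 3684 units in knockdown and 4109 in control gave -0.16, one of 3764 in knockdown and 3775 in control gave -0.01, and one of 1407 in knockdown and 1426 in control gave -0.02. The remaining ones, at or below about 100 units, gave 0.04 and 0.10. The mean over all 6 BUB3 probe sets was -0.06. Without knockdown replicate 1 those that had given -0.16, -0.01 and -0.02 gave -0.05, 0.08 and -0.07.

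MAD2L1 encodes MAD2, the checkpoint protein that binds CDC20 and blocks the anaphase-promoting complex. It read 5962, 8444 and 7727 in knockdown, against 9646, 9735 and 8036 in control, and the groups overlapped. The log2 fold change was -0.32 (SE 0.16, adjusted p = 0.775 in limma), or -0.17 without knockdown replicate 1. A second probe set read 3811, 4243 and 4669 in knockdown, against 5172, 5125 and 5013 in control, with no overlap and a log2 fold change of -0.27 (SE 0.11, unadjusted p = 0.0428 and adjusted p = 0.755 in limma over probe sets). The remaining probe set read 580.8 units in knockdown and 581.7 in control, and gave 0.06 without knockdown replicate 1.

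SPC25, a subunit of the NDC80 complex that grips microtubules, was at -0.29 (SE 0.19), or -0.09 without knockdown replicate 1. It read 1714, 2639 and 2507 in knockdown, against 3014, 2965 and 2325 in control, so replicate 1 of the knockdown was the low one and the groups overlapped. Its partners NDC80 and NUF2 were at -0.06 and -0.09, and NUF2 was at -0.03 without that array. The checkpoint kinases TTK and BUB1B (BUBR1, a kinase-like protein) were each at 0.04, with knockdown arrays within 2016 to 2047 for TTK and 4365 to 4427 for BUB1B. CDC20, the activator of the anaphase-promoting complex that the checkpoint restrains, was at 0.05, or 0.004 without knockdown replicate 1.

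BUB1, the kinase that marks centromeric chromatin, read 2971, 3341 and 3343 in knockdown, against 3279, 3504 and 3724 in control, a log2 fold change of -0.12. Its second probe set, at 177.8, 122.5 and 136.7 in knockdown, against 96.89, 111.2 and 126.5 in control, gave 0.27 (SE 0.14), so the 2 differed in sign. They gave -0.06 and 0.16 without knockdown replicate 1. CENPA, the histone variant of centromeres, was at 0.08, the kinetochore motor CENPE at 0.03 and the large kinetochore protein CENPF at 0.16. CENPA was at -0.02, CENPE at -0.08 and CENPF at 0.06 without knockdown replicate 1. For CENPF that array read 9212, beside 7077 and 7813 in the other knockdown arrays and 6426, 7489 and 7518 in control. A second CENPF probe set gave 0.01, or 0.03 without that array.

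The chromosomal passenger complex, which corrects faulty attachments, held INCENP at 0.14, BIRC5 (survivin) at -0.10 and CDCA8 (borealin) at -0.10, beside AURKB at 0.09. INCENP read 257.0, 185.0 and 194.3 in knockdown, against 269.3, 174.3 and 135.3 in control, and the groups overlapped. Its log2 fold change was -0.04 without control replicate 3 and 0.02 without knockdown replicate 1. The BIRC5 probe set used read 2171, 2872 and 2610 in knockdown, against 2699, 2628 and 2833 in control, and gave 0.01 without knockdown replicate 1, the low one. Its other 3 probe sets gave -0.02, 0.36 and -0.46, with standard errors of 0.11, 0.20 and 0.29, and all 4 had overlapping groups.

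Of the 8 genes of chromosome condensation and sister separation, 6 lay above 0 (50.8% of all genes did), with a median of 0.08. Their median log2 deviation from each gene's mean over the 6 arrays was 0.067, 0.044 and 0.014 in knockdown replicates 1 to 3. In control replicates 1 to 3 it was -0.048, -0.069 and 0.017, so control replicate 3 lay above knockdown replicate 3. The knockdown arrays lay above all control arrays for 3 of the 8, beside the 6.68% of all genes, and below them for 0. None passed the test, and at an unadjusted p under 0.05 there were 0. ESPL1, separase, the protease that cuts cohesin, read 3212, 2857 and 2803 in knockdown, against 2635, 2390.4 and 2633 in control, a log2 fold change of 0.21 (SE 0.10, adjusted p = 0.774 in limma). NCAPD2, a subunit of condensin I, read 4435, 4709 and 4591 in knockdown, against 4097, 4060.3 and 4018 in control, a log2 fold change of 0.17 (SE 0.09, adjusted p = 0.777 in limma). For NCAPD2 the control arrays lay within 79 units of each other and all knockdown arrays at least 338 units above them. A second ESPL1 probe set gave 0.02, or -0.09 without knockdown replicate 1.

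SMC2, an arm of the condensin ring, read 1399, 1329 and 1282 in knockdown, against 1280, 1095 and 1265 in control. These groups were separated by 2.6 units, and the log2 fold change was 0.14 (SE 0.10). A second SMC2 probe set read 946.0, 915.8 and 705.0 in knockdown, against 1337, 836.0 and 934.7 in control, and gave -0.25 (SE 0.20). SMC2 therefore had opposite signs on its 2 probe sets, and neither passed.

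The other arm, SMC4, was at -0.02, and its second probe set, at 2061, 1740.0 and 1766 in knockdown, against 1635, 1481 and 1668 in control, gave 0.21 without overlap. Without knockdown replicate 1 the first gave -0.01 and the second 0.13, and the dimmest SMC4 probe set gave -0.01 with all arrays and 0.01 without that one. NCAPG and NCAPH, the remaining condensin I subunits, were at -0.02 and 0.02, so the values of the condensin subunits stood on both sides of 0. NCAPG and NCAPH were both at 0.01 without knockdown replicate 1, and a second NCAPG probe set, at 0.03, was then at 0.08. PTTG1, securin, the inhibitor of separase, read 11845, 10003 and 9956 in knockdown, against 9116, 9546 and 10131 in control, and was at 0.14 (SE 0.11), or 0.06 without knockdown replicate 1, the high one. TOP2A, which untangles sister DNA, was at 0.01 with an interval of -0.21 to 0.23, or -0.03 without that array, and a second TOP2A probe set gave 0.05, or 0.02 without it. No core subunit of cohesin itself was among the 44. PTTG1 and KIF4A have near-identical gene copies, and a probe set may not tell these apart.

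The 8 genes of motors and spindle had a median of 0.03, with 5 above 0 and no gene free of overlap. KIF23, a kinesin of the central spindle, read 1863, 1571 and 1888 in knockdown, against 1313, 1631 and 1717 in control, a log2 fold change of 0.19 (SE 0.14, adjusted p = 0.836 in limma). ANLN, anillin, a scaffold of the contractile ring, read 5788, 6217 and 6331 in knockdown, against 6114, 6955 and 6808 in control, a log2 fold change of -0.11 (SE 0.10). Both overlapped between groups, and a second ANLN probe set gave 0.17. The ANLN probe sets gave -0.08 and 0.09 without knockdown replicate 1, and a second KIF23 probe set, at 0.01 with all arrays, gave 0.05.

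KIF11, the motor that pushes the spindle poles apart, was at -0.003, KIF20A, of the central spindle, at 0.04, and the chromokinesin KIF4A at -0.02. KIF2C, which takes microtubules apart at centromeres, was at 0.12, with 5290 in knockdown replicate 1 beside 4118 and 4312 in the other knockdown arrays and 4025 to 4295 in control. Without that array KIF2C was at 0.01. Its second probe set gave -0.12, or -0.20 without that array. TPX2, which activates AURKA on the spindle, was at 0.05 and PRC1, which bundles antiparallel microtubules, at 0.02. Without knockdown replicate 1 KIF11 was at 0.01, KIF4A at -0.05, TPX2 at -0.001 and PRC1 at -0.06.

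MKI67, the Ki-67 protein that coats mitotic chromosomes and serves as a marker of proliferating cells, had the smallest p of the 44. It read 789.5, 740.5 and 769.3 in knockdown, against 637.5, 628.6 and 679.7 in control, with means of 766.4 ± 24.6 in knockdown and 648.6 ± 27.3 in control (SD, n = 3 each). The log2 fold change was 0.23 (SE 0.09, unadjusted p = 0.039 and adjusted p = 0.736 in limma). All 3 knockdown arrays were higher than all 3 control arrays, and its other 3 probe sets gave 0.18, 0.07 and 0.09, each with overlap. These 3 gave 0.13, -0.06 and -0.02 without knockdown replicate 1, and the probe set that stands for MKI67 gave 0.20. The unadjusted p stayed under 0.05 only without control replicate 3 when 1 of the 6 arrays was left out.

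FOXM1, the transcription factor of the G2 and M phase genes, read 6092, 5607 and 6333 in knockdown, against 5968, 6212 and 6821 in control, a log2 fold change of -0.07 (interval -0.31 to 0.17). UBE2C, the ubiquitin-conjugating enzyme of the anaphase-promoting complex, read 11997, 12259 and 11905 in knockdown, against 10535, 12574 and 13271 in control, a log2 fold change of -0.002, or 0.001 without knockdown replicate 1. For UBE2C the knockdown arrays lay within the range of the control arrays. Both genes lay closer to 0 than MKI67.

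Across the 87 probe sets, 0 passed in limma over all 41091 that name 1 gene, of which 0.00243% passed. At an unadjusted p under 0.05 there were 1 higher (3.91% of all probe sets) and 2 lower (2.69% of all). The groups did not overlap for 5 higher (7.03% of all) and 4 lower (5.47% of all). Of the 22 genes with several probe sets, 8 had all of them on the same side of 0, which were CCNA2, CCNB1, AURKB, MAD2L1, CENPF, ESPL1, KIF23 and MKI67, and 14 did not. Without knockdown replicate 1, ESPL1, MAD2L1 and MKI67 each had a probe set on the other side of 0. Probe sets of 100 units or more differed in sign by over 0.3 for PLK4, BUB1, BIRC5 and SMC2. Of the 87 probe sets, 9 read below 50 units, where the scale used here holds differences small.

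**Figure D3:**
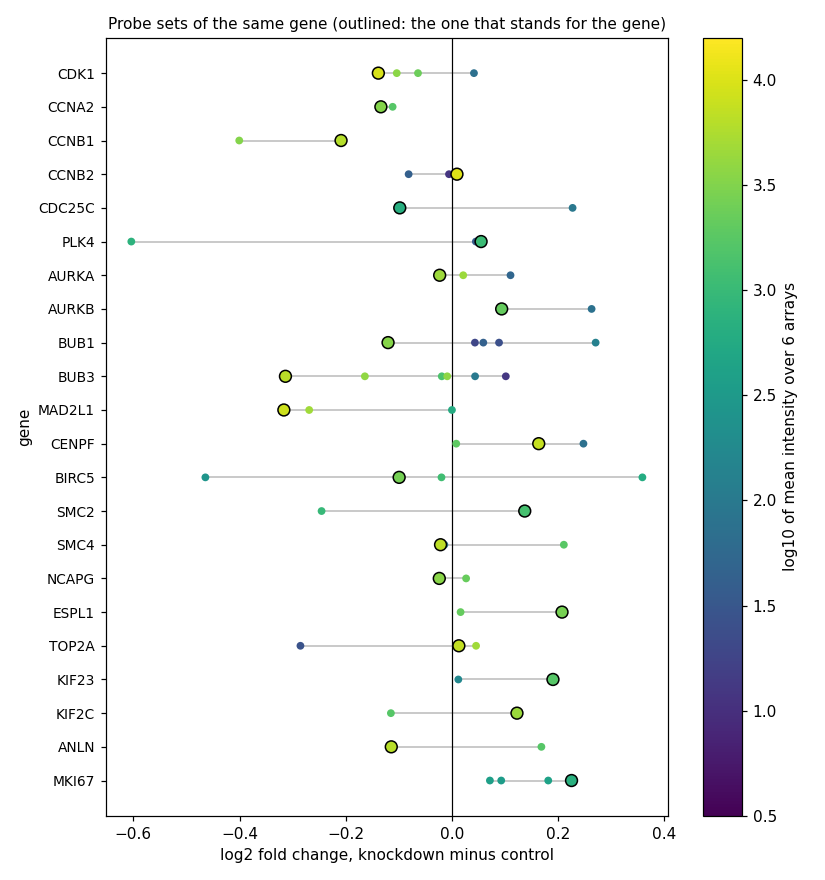
Log2 fold change, knockdown minus control, of every probe set of the 22 genes that have several, coloured by log10 of the mean intensity, with the probe set that stands for the gene outlined. The probe sets of PLK4 run from -0.60 to 0.05 and those of BIRC5 from -0.46 to 0.36, while those of CCNA2 lie at -0.13 and -0.11.

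The spread between arrays was uneven. Knockdown replicate 1 was the highest of the 6 arrays for 17 of the 44 genes and the lowest for 11, so it was an extreme for 28. Knockdown replicates 2 and 3 were extremes for 10 and 5, and control replicates 1 to 3 for 13, 16 and 16. The standard deviation of the 44 deviations from each gene's mean was 0.20 log2 units in knockdown replicate 1, 0.10 and 0.08 in the other knockdown arrays, and 0.13, 0.12 and 0.11 in control. Over all genes it was 0.25 in knockdown replicate 1 and 0.19 to 0.21 in the others. Its median deviation over the 44 was 0.02, with 26 genes above their mean, so the array held both high genes (CENPF, KIF2C, PTTG1) and low ones (SPC25, MAD2L1, CCNB1). Without knockdown replicate 1 the log2 fold change of 29 of the 44 genes moved by over 1.5 times or changed sign, and 9 of these changed sign. Of the 28 further probe sets of 100 units or more, 19 moved that far or changed sign, 6 of them in sign. Leaving out each of the other arrays also turned the sign of some of the 44 genes, as listed at the end. Moves of over 1.5 times were counted for knockdown replicate 1 only. Coefficients of variation had a median of 7.26% in knockdown and 6.51% in control.

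**Figure D4:**
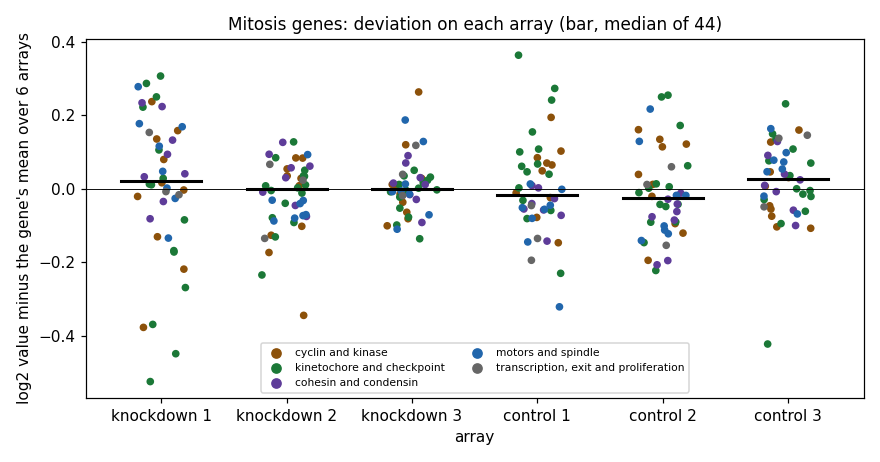
Deviation of each of the 44 genes from its own mean over the 6 arrays (log2 units), by array and coloured by role, with a bar at the median. The medians lie between -0.02 (control replicate 2) and 0.03 (control replicate 3), and the points of knockdown replicate 1 are the most widely spread.

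The other genes of the pathway were taken from a list of 122 genes written from textbook knowledge, of which 117 were measured. None passed in limma. At an unadjusted p under 0.05, 1 was higher and 2 were lower, beside 3.63% and 3.03% of all genes. The groups did not overlap for 7 higher and 12 lower, 16.2% in all, beside 13.0% of all genes. Above 0 lay 46 (39.3%, beside 50.8% of all genes) and below it 71, with a median of -0.03, and this split was not tested. ANAPC11, the catalytic RING subunit of the anaphase-promoting complex, read 5218, 5045 and 5434 in knockdown, against 6315, 6628 and 7303 in control, a log2 fold change of -0.36 (SE 0.10, adjusted p = 0.616 in limma). CENPC, which ties the kinetochore to centromeric chromatin, read 437.9, 394.1 and 446.9 in knockdown, against 323.4, 306.5 and 369.5 in control, a log2 fold change of 0.32 (adjusted p = 0.701 in limma). NSL1, a subunit of the MIS12 complex of the kinetochore, read 4876, 5400.2 and 5244 in knockdown, against 5988, 6182 and 6095 in control, a log2 fold change of -0.23 (adjusted p = 0.727 in limma). For these 3 genes the groups did not overlap. By role, 5 of 16 genes of the anaphase-promoting complex and its partners lay above 0. So did 16 of 34 kinetochore genes, 6 of 16 of cohesin and condensin II and 11 of 21 of motors and spindle. The same held for 4 of 17 cyclin, kinase and phosphatase genes and 4 of 13 transcription regulators.

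**Figure D5:**
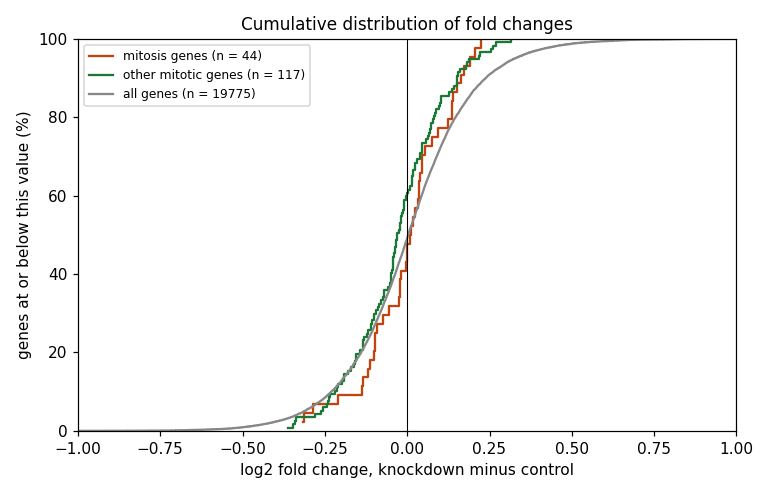
Cumulative share of genes (%) at or below each log2 fold change, knockdown minus control, for the 44 mitosis genes, 117 other mitotic genes and all 19775 genes. The curve of the 44 crosses 0 near its middle, with a median of 0.01, and its ends, at -0.32 and 0.23, lie inside those of all genes.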

How the data were processed

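RNA was measured on 6 human whole-transcriptome 3′ expression arrays, 3 knockdown and 3 control. The deposited values are intensities on a linear scale for 54675 probe sets, which the values show to be scaled to a common trimmed mean of 500.07 (2% left out at each end). RMA is named without a version, per the submitters' processing notes; it gives log2 values and does not describe these, and the background correction is not given in the sources used here. Detection calls were not at hand, and 3 arrays a group limit the precision.

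Intensities were put on the log2 scale after adding 50, which understates changes of dim genes. Names came from the platform annotation, with symbols updated through gene identifiers to GRCh38.p14 (41037 of 41091 matched). Another 1801 probe sets name several genes, 1 of them with CENPA, and were not used. The probe set of highest mean stood for its gene. Limma 3.58.1 (R 4.3.3) was fitted over all 19775 genes, and again over the 41091 probe sets, with Benjamini-Hochberg adjustment and a threshold of 0.05. With 3 against 3 arrays an exact two-sided permutation test reaches 0.1 at the lowest, so none was used. The code was tested on simulated arrays.

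The members, the role groups and the lists were chosen with earlier results of these data known. Array values are given for members with an unadjusted p under 0.05 in either fit, for the 2 of smallest p and the 1 of highest signal in each role group, and for members whose probe sets of 100 units or more differ in sign by over 0.3. Of the other mitotic genes, those at an unadjusted p under 0.05 are named. Further array values, of SPC25, CENPF, INCENP, TTK, BUB1B, KIF2C and SMC4, were added after they were seen. The 18 alternatives covered the probe set, dim genes, offset, scaling, eBayes options, array weights, the replicate block and each array left out. One more, the fit over probe sets without knockdown replicate 1, was chosen after seeing the data.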

Additional observations from a re-analysis of the deposited data

How the results depend on the processing

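The median standard error of 0.11 log2 units, from 3 arrays a group, sets how small a change could be told from 0. Under all 18 alternatives 0 of the members were called, and the smallest adjusted p of any member was 0.513, among genes at or above the median. VAMP7 stayed past the threshold in the 17 that measured it, with -3.96 and -3.42 at offsets of 16 and 100, and between -3.79 and -3.65 with 1 array left out. The median of the members, 0.01, was -0.024 with arrays centred on their medians, where that of all genes was -0.03, and -0.01 to 0.04 with 1 array left out. Members higher at an unadjusted p under 0.05 (1) numbered 0 with a gene's probe sets averaged, without _s_ and _x_ probe sets (34 members left), with median centring and with the replicate block, 2 after quantile normalization, 3 with an intensity trend, and 0 to 1 with 1 array left out. Members lower at that p (1) numbered 0 with a gene's probe sets averaged and at an offset of 16, 2 among genes at or above the median, with an intensity trend and over all probe sets, and 0 to 2 with 1 array left out. Leaving out knockdown replicates 1 or 3 or control replicates 1 or 2 brought both to 0. Leaving out knockdown replicate 2 gave 0 higher and 2 lower, and leaving out control replicate 3 gave 1 and 0. With an intensity trend, 11.4% of the members were at an unadjusted p under 0.05, against 7.28% of all genes. After quantile normalization the shares were 6.82% and 7.004%, and among genes at or above the median 6.98% and 8.88%. In every other setting too the share of the members lay below that of all genes or probe sets tested. These differences in share were not tested. Same-numbered arrays showed no shared deviation (correlations -0.01, 0.01 and -0.02, beside -0.02 to 0.02 for the other pairs). With 3 arrays a group this cannot show whether the replicate numbers pair the samples. The replicate block gave 0 members called.

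Of 781 values of single members, 67 changed sign, in 26 genes, and the cause was not tested. Part of the 781 could not change sign, because some settings leave the log2 fold change as it was. These are the intensity trend, robust eBayes, the replicate block, genes at or above the median and the fit over all probe sets. With a gene's probe sets averaged CCNB2 was at -0.026, CDC25C 0.010, PLK4 -0.17, AURKA 0.036, BUB1 0.068, SMC2 -0.054, SMC4 0.058, NCAPG 0.0013, TOP2A -0.076 and ANLN 0.027. Without _s_ and _x_ probe sets PLK4 was at -0.60, AURKA 0.11, BUB3 0.043, SMC2 -0.25, NCAPG 0.027 and ANLN 0.17. At an offset of 100 CDC25B was at 0.00013. With median centring CCNB2 was at -0.026, CENPE -0.0011, NCAPH -0.016, TOP2A -0.022 and PRC1 -0.011. After quantile normalization CDC25B was at 0.012, SMC4 0.0017, KIF11 0.016, KIF4A 0.0083 and UBE2C 0.031. With array weights CENPE was at -0.011, TOP2A -0.012, PRC1 -0.036 and UBE2C 0.0030. With 1 array left out, the lowest and highest log2 fold changes were CENPA -0.016 to 0.16, CENPE -0.083 to 0.16, BIRC5 -0.19 to 0.0099, NCAPG -0.045 to 0.016, TOP2A -0.031 to 0.039, KIF11 -0.076 to 0.11, TPX2 -0.0014 to 0.095, PRC1 -0.058 to 0.085, UBE2C -0.10 to 0.066, CDC25B -0.12 to 0.087, AURKA -0.069 to 0.034, KIF4A -0.046 to 0.021, AURKB -0.015 to 0.17, SMC4 -0.074 to 0.037, NCAPH -0.012 to 0.061, KIF20A -0.022 to 0.13, CCNB2 -0.00031 to 0.027, NDC80 -0.090 to 0.0082, BUB1B -0.0016 to 0.062 and INCENP -0.040 to 0.35. The sign turned without knockdown replicate 1 for CENPA, CENPE, BIRC5, NCAPG, TOP2A, KIF11, TPX2, PRC1 and UBE2C. It did so without knockdown replicate 2 for CDC25B, AURKA and KIF4A. It did so without knockdown replicate 3 for CDC25B, AURKB, SMC4, NCAPH, KIF11, KIF20A and UBE2C. It did so without control replicate 1 for CCNB2, CDC25B and NDC80. It did so without control replicate 2 for BUB1B, CENPA, CENPE, TOP2A, KIF11, KIF20A, PRC1 and UBE2C. It did so without control replicate 3 for CDC25B, INCENP, SMC4, NCAPG, KIF4A and UBE2C. In the fit over probe sets without knockdown replicate 1, chosen after seeing the data, further probe sets changed sign, with BUB3 0.084, MAD2L1 0.063, SMC4 0.012, ESPL1 -0.088, MKI67 -0.064 and MKI67 -0.023.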
